A study of Macaca mulatta with 13 samples.

Results

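The SLC25 genes encode the mitochondrial carriers, and 36 of them were measured in thigh muscle of aged rhesus monkeys (Macaca mulatta). They were chosen as the genes with an SLC25A number as their only symbol in the platform annotation, apart from SLC25A20, out of 14132 genes with a probe set of 1 symbol. Each gene is represented by its brightest probe set, that is, the one with the highest mean log2 signal over all arrays. The 36 genes had 58 probe sets, with 1 probe set for 23 genes and 2 to 5 for the other 13. The muscle was the vastus lateralis of male animals. The 5 control animals ate a control diet and were 27 to 30 years old. The 8 calorie-restricted (CR) animals were 27 to 32 years old, and the restriction is given as lasting 18.5 years, which is read here as applying to these animals only, since the wording of the design could cover both groups. Each animal gave 1 array, and the comparison asked which carriers differed in signal between the diets.

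Mitochondrial carriers are small proteins of the inner mitochondrial membrane, which is closed to charged metabolites without them. They exchange ADP for ATP, import phosphate, pass the acids of the Krebs cycle and of the malate-aspartate shuttle, and bring in amino acids, iron and cofactors. In skeletal muscle the ADP/ATP carrier and the phosphate carrier supply the ATP synthase with its substrates, so both are abundant proteins of the tissue. A few family members sit in other membranes, in the outer mitochondrial membrane or in peroxisomes.

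The labelled tissue was checked first. Of 10 skeletal muscle markers, 7 were measured, and all 7 lay at or above the 93.5th percentile of probe sets by mean signal. Of the 13 arrays, control replicate 4 stood apart from the other controls. Its summed signal of the muscle markers was 292123, against 331116 to 629031 in the other controls and 384488 to 725131 in CR. Its summed signal was 38146 for 5 of 7 adipocyte markers (5580 to 19957 in the other controls, 5199 to 45361 in CR) and 17716 for 7 of 7 endothelial markers (6191 to 11769, and 4329 to 10012 in CR). For 5 of 6 fibroblast and matrix markers the sum was 122025 (29864 to 70901 in the other controls, 34655 to 82973 in CR), and for 4 of 5 macrophage markers 2813 (1033 to 2218, and 691 to 3677 in CR). Some markers were dim, with a lowest single signal of 16.2 in the adipocyte list and 29.2 in the endothelial list. Whether each marker was detected was not assessed. Between the diets the CR mean was lower for 7 of 7 slow-fibre markers (median difference -0.52, log2), 7 of 7 endothelial markers (median -0.50) and 4 of 4 macrophage markers (median -0.22). It was higher for 6 of 7 fast-fibre markers (median 0.21) and 5 of 7 skeletal muscle markers (median 0.28). These lists share genes and are not separate counts. TNNT3, TNNC2 and TNNI2 are in both the fast-fibre and the skeletal muscle list, and TNNT1 is in both the slow-fibre and the skeletal muscle list. The adipocyte and the matrix lists each had 2 higher and 3 lower, and the erythroid and blood list 1 higher and 3 lower. Over all named genes the CR mean was higher for 50.8%. Over the named genes in the brightest 10% of probe sets, where all measured muscle, slow-fibre and fast-fibre markers lay, it was higher for 63%. These are values with no test. The log2 ratio of the 3-prime to the 5-prime actin probe set, a sign of RNA quality, was 2.41 in control replicate 4, against 1.47 to 1.68 in the other controls and 1.06 to 2.08 in CR. The same ratio for GAPDH was 0.728 in this animal, within the 0.305 to 0.762 of the other controls. The part of these differences in the carrier values was not tested. In whole muscle, fewer cells of a type and less RNA per cell cannot be told apart.

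None of the carriers passed the test between the diets. The test was limma's moderated test on log2 signals, two-sided, with Benjamini-Hochberg adjustment over the 26383 probe sets that make up the brighter 50%, and 30 of the 36 carriers were bright enough to enter it. The number past an adjusted p of 0.05 was 0 of 30, as it was for all probe sets tested (0%), and each carrier had an adjusted p of 0.999. At an unadjusted p under 0.05 there were also 0 carriers, where 2.43% of all tested probe sets reached it, 1.25% higher and 1.18% lower in CR. Over all 36 carriers, tested or not, the CR mean was higher for 18 and lower for 18, and over all named genes it was higher for 50.8%. The median difference, CR minus control, was -5.68e-06 on the log2 scale for the carriers and 0.0058 for all named genes. The groups overlapped for every one of the 36, where 0.0929% of all probe sets had groups that did not overlap. The 95% interval of a tested carrier's difference, before adjustment, had a half-width between 0.31 and 1.27, with a median of 0.54.

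**Figure D1:**
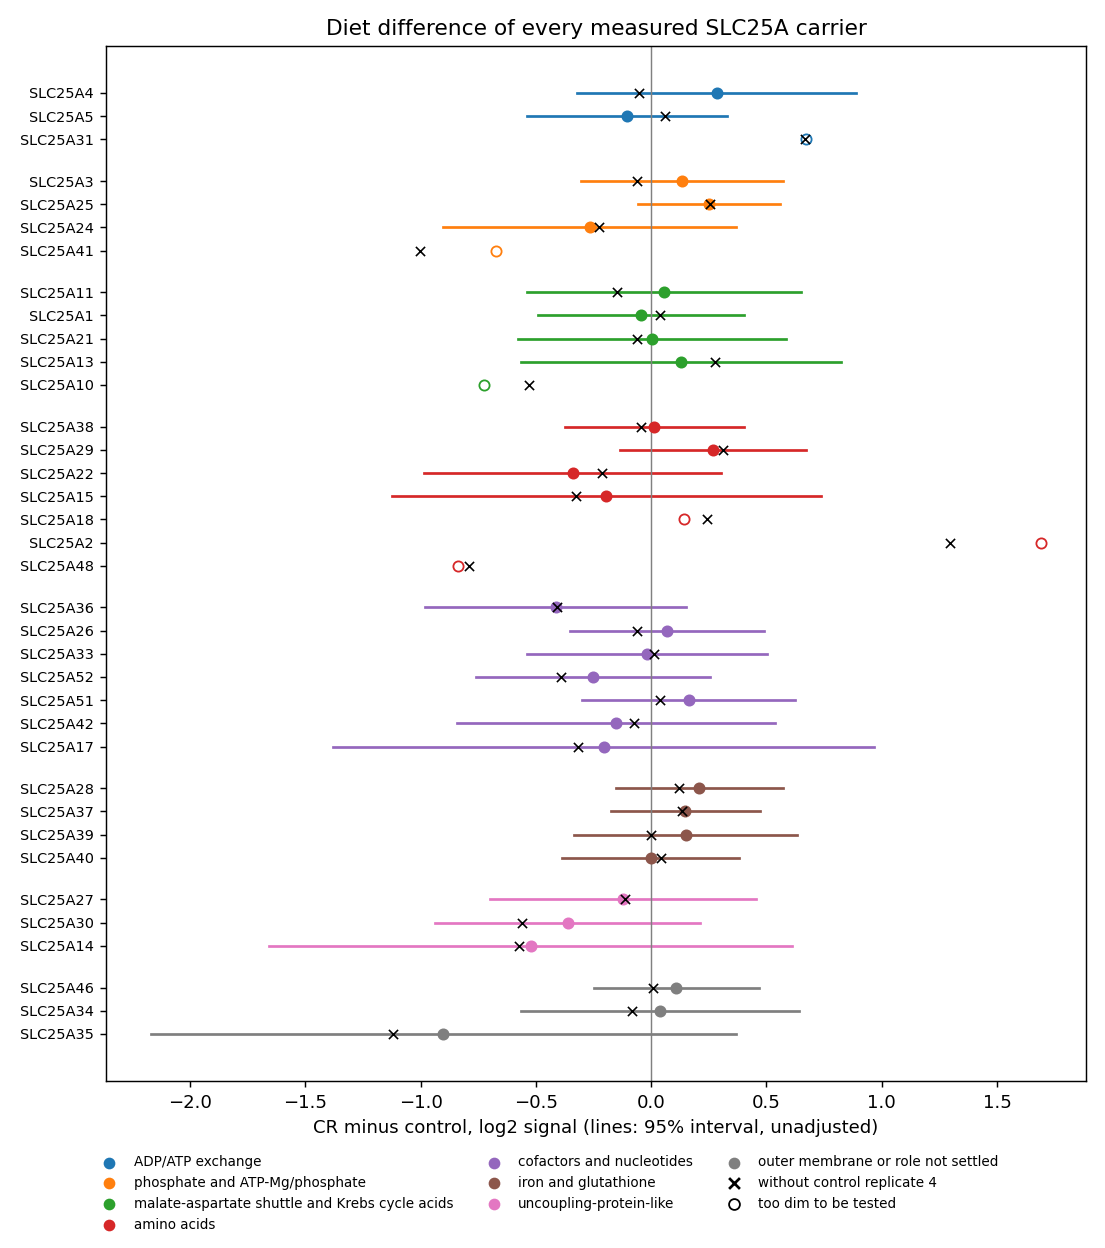
Difference of the mean log2 signal, CR minus control, for all 36 carriers, grouped by role. Dots are differences over 5 control and 8 CR animals, lines the 95% intervals of the 30 tested carriers before adjustment, open dots the 6 carriers too dim to be tested, and crosses the difference without control replicate 4. Every line crosses 0, and the crosses of SLC25A4, SLC25A3, SLC25A11, SLC25A21, SLC25A26, SLC25A34 and SLC25A38 lie below 0 where their dots lie above it. For SLC25A1, SLC25A5, SLC25A33 and SLC25A40 the cross lies above 0 and the dot below it.

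Signals of different probe sets are not levels that can be compared between genes, so brightness serves here only to say which carriers were well measured. A carrier is called bright where its probe set was among the brightest 10% of all probe sets, which held for 12 of the 36. The dimmest of the 12 was SLC25A5, with a mean log2 signal of 10.58, and the next one below the limit was SLC25A27, with 9.91. Among the 12 the CR mean was higher for 9, with a median difference of 0.088. Of the 2890 named genes as bright as these, 63% had a higher CR mean, with a median difference of 0.062. These values moved with single controls in both directions. Without control replicate 4 the CR mean was higher for 6 of the 12, and their median was -0.021. Without control replicate 1 it was higher for 10, with a median of 0.18, and without control replicate 5 for 9, with a median of 0.19.

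The ADP/ATP carriers exchange cytosolic ADP for the ATP made in the matrix. SLC25A4 encodes the form typical of heart and muscle, and its probe set was the brightest of the family, at the 99.8th percentile. Its signals in controls 1 to 5 were 67836, 42132, 36273, 15545 and 58620. In CR they ran from 31935 to 64605, with a median of 48122. Control replicate 4 was the lowest of all 13 animals, and the other controls spanned about the same range as CR. The difference was 0.28 ± 0.29 (SE, log2; 95% interval -0.32 to 0.89; limma's adjusted p = 0.999). Of the 8 CR animals 7 were above the mean of all 5 controls, a mean that the low control replicate 4 pulled down. Without control replicate 4 the difference was -0.051. The SD among controls was 0.83 with that animal and 0.42 without it, and 0.33 among the 8 CR animals. The other 2 probe sets of SLC25A4 gave differences of 0.031 and 0.28.

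SLC25A5 encodes the ADP/ATP carrier of dividing and many non-muscle cells. Controls 1 to 5 had signals of 1507, 1118, 1678, 2520 and 1475, and in CR they ran from 940 to 1943 with a median of 1564. Here control replicate 4, which was lowest for SLC25A4, was the highest of the 13 animals. The difference was -0.10 ± 0.21 (SE, log2; 95% interval -0.54 to 0.33; limma's adjusted p = 0.999), and 0.059 without control replicate 4. SLC25A31, the carrier of the male germ line, was too dim to be tested, with signals from 5.93 to 61.8 in controls and from 4.82 to 82.5 in CR. SLC25A6 was not analysed here.

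SLC25A3 imports the phosphate that the ATP synthase joins to ADP, and it also carries copper. In controls 1 to 5 its signals were 24572, 16796, 14387, 9822 and 22884, and in CR they ran from 14116 to 21960 with a median of 18885. Control replicate 4 was again the lowest of the 13, and controls 1 and 5 lay above all CR animals. The difference was 0.13 ± 0.21 (SE, log2; limma's adjusted p = 0.999), and -0.059 without control replicate 4. The SD was 0.54 among controls and 0.25 among CR animals.

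**Figure D2:**
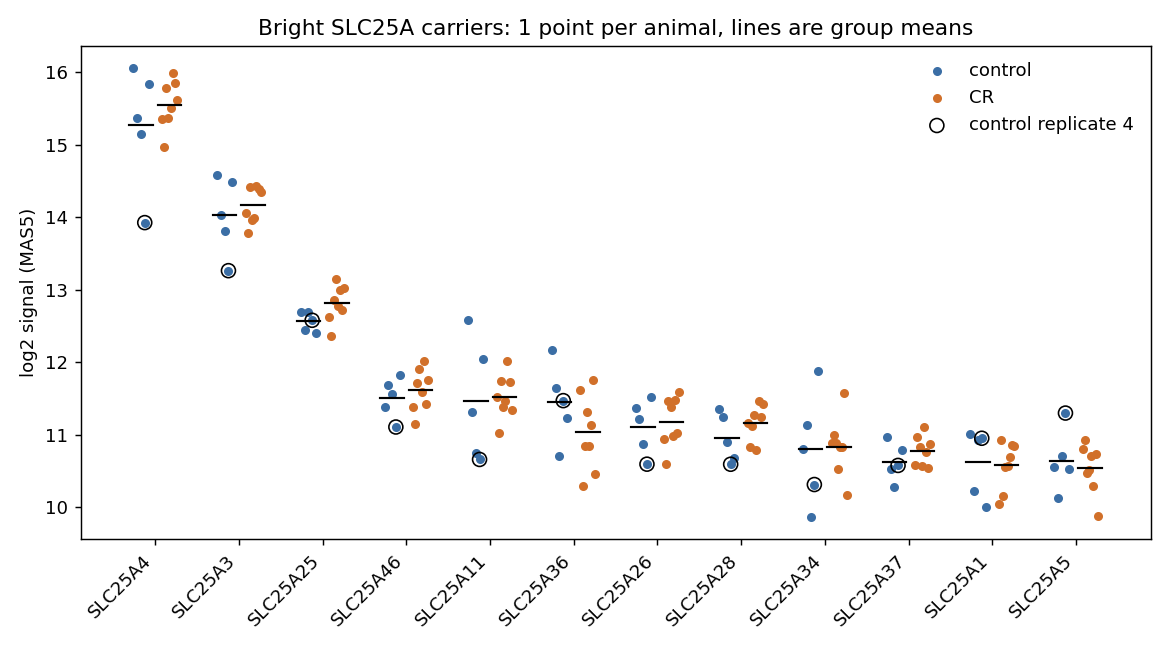
Log2 signal of the 12 bright carriers, 1 point per animal, with 5 controls in blue and 8 CR animals in orange, lines at the group means and control replicate 4 circled. Control replicate 4 is the lowest point for SLC25A4, SLC25A3, SLC25A46, SLC25A11, SLC25A26 and SLC25A28 and the highest for SLC25A5.

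The ATP-Mg/phosphate carriers move adenine nucleotides into or out of the matrix in answer to calcium. SLC25A25 had the lowest p of all tested carriers. Its signals in controls 1 to 5 were 6634, 5577, 6647, 6115 and 5403. In CR they ran from 5270 in replicate 2 to 9057 in replicate 4, with a median of 7212. The controls lay close together, and 6 of the 8 CR animals lay above all of them. The difference was 0.25 ± 0.15 (SE, log2; 95% interval -0.057 to 0.56), a 1.19-fold higher mean in CR, with an unadjusted p of 0.104 and an adjusted p of 0.999 from limma. It was 0.25 without control replicate 4 also, and from 0.20 to 0.31 with any 1 animal left out. Its other 2 probe sets, both dimmer, differed by 0.14 and 0.16.

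SLC25A24, its relative of proliferating cells, had a difference of -0.27 ± 0.30 (SE, log2; limma's adjusted p = 0.999), and of -0.12 without CR replicate 7, -0.16 without CR replicate 4 and -0.165 without control replicate 3. Its signals ran from 333.8 to 622.7 in controls and from 187.0 to 678.9 in CR, so that the CR range enclosed that of the controls. SLC25A41 was too dim to be tested, with a difference of -0.67. Its signals were 55.7 in control replicate 4, 135.7 to 216.3 in the other controls and 32.3 to 156.0 in CR. SLC25A23 was not analysed here, since no probe set carried its symbol alone.

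The malate-aspartate shuttle brings the reducing power of cytosolic NADH into the matrix. SLC25A11 exchanges malate for 2-oxoglutarate in this shuttle. Controls 1 to 5 had signals of 6130, 2553, 1723, 1618 and 4224, and in CR they ran from 2082 to 4131 with a median of 2886. The controls included both the 2 lowest and the 2 highest of the 13 animals. The difference was 0.055 ± 0.28 (SE, log2; limma's adjusted p = 0.999), -0.15 without control replicate 4 and 0.33 without control replicate 1. The SD was 0.83 among controls and 0.30 among CR animals.

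SLC25A13 encodes citrin, the aspartate/glutamate carrier best known from liver. Its probe set was dim, with signals from 89.6 to 243.6 in controls and from 105.2 to 327.5 in CR, and a difference of 0.13 ± 0.33 (SE, log2). SLC25A12, the aspartate/glutamate carrier of muscle and brain, was not analysed here, since no probe set carried its symbol alone.

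SLC25A1 exports citrate, the source of cytosolic acetyl groups for lipid synthesis. In controls 1 to 5 its signals were 2071, 1201, 1943, 1981 and 1029, and in CR they ran from 1058 to 1940 with a median of 1591. The controls held both the lowest animal and the 3 highest. The difference was -0.044 ± 0.21 (SE, log2; limma's adjusted p = 0.999). SLC25A21, a carrier of oxodicarboxylic acids, differed by 0.0026 ± 0.27. SLC25A10, the dicarboxylate carrier of liver and fat, was too dim to be tested and differed by -0.72, with signals from 55.4 to 171.8 in controls and from 13.1 to 252.4 in CR.

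The list of amino acid carriers had 7 measured members, of which 4 were tested. SLC25A29, which carries basic amino acids, had signals of 382.5, 319.8, 369.0, 381.1 and 251.3 in controls 1 to 5. In CR they ran from 331.2 to 556.1 with a median of 367.5. The 3 highest animals were CR, and the lowest was control replicate 5. The difference was 0.27 ± 0.19 (SE, log2; limma's adjusted p = 0.999), and 0.16 without control replicate 5. SLC25A22, a glutamate carrier, had signals of 161.4, 320.6, 229.9, 324.4 and 157.7 in controls 1 to 5 and from 75.4 to 259.1 in CR, with a median of 202.7. Its difference was -0.34 ± 0.30 (SE, log2; limma's adjusted p = 0.999), -0.21 without control replicate 4 and -0.16 without CR replicate 8.

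SLC25A38 brings in glycine for haem synthesis and differed by 0.015 ± 0.18 (SE, log2). SLC25A15, the ornithine carrier of the urea cycle, differed by -0.19 ± 0.44. SLC25A2, SLC25A18 and SLC25A48 were too dim to be tested. SLC25A2, a further ornithine carrier, had the largest difference of the family, 1.69, and its values are given for that reason, having been chosen after they were seen. Its signals were very low, 3.38 to 34.5 in controls and 13.1 to 61.4 in CR, and the groups overlapped. SLC25A18, a further glutamate carrier, differed by 0.14. SLC25A48, placed in this list with no check of its substrate, differed by -0.84.

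Cofactor and nucleotide carriers had 7 measured members, all of them tested, and none passed. The CR mean was higher for 2 and lower for 5, where it was higher for 50.8% of all named genes. SLC25A36 carries pyrimidine nucleotides. Its signals in controls 1 to 5 were 4593, 3205, 1680, 2838 and 2414, and in CR they ran from 1258 to 3451 with a median of 2046. Control replicate 1 was the highest animal, and the 3 lowest of all 13 were 2 CR animals and control replicate 3. The difference was -0.41 ± 0.27 (SE, log2; 95% interval -0.98 to 0.15; limma's adjusted p = 0.999), and -0.23 without control replicate 1, but its other bright probe set gave 0.18. SLC25A33, its relative in pyrimidine transport, differed by -0.019 ± 0.25.

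SLC25A26 imports S-adenosylmethionine, the methyl donor for mitochondrial RNA and protein. Controls 1 to 5 had signals of 2655, 2383, 1869, 1547 and 2925, and in CR they ran from 1551 to 3083 with a median of 2377. The control median was 2383, so the medians were nearly equal. The difference was 0.067 ± 0.20 (SE, log2), and -0.062 without control replicate 4.

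SLC25A51 imports NAD. Its difference was 0.16 ± 0.22 (SE, log2), and 0.037 without control replicate 4. SLC25A52 is a close copy of SLC25A51, so that their probe sets may share signal. In controls 1 to 5 its signals were 571.2, 1086, 489.8, 435.9 and 798.1, and in CR they ran from 407.4 to 745.4 with a median of 525.4. The difference was -0.25 ± 0.24 (SE, log2; limma's adjusted p = 0.999), and -0.060 without control replicate 2. SLC25A42, which carries coenzyme A, differed by -0.15 ± 0.33, and SLC25A17, its counterpart of the peroxisome, by -0.21 ± 0.55.

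The mitoferrins bring iron into the matrix for haem and iron-sulphur clusters. SLC25A28 encodes mitoferrin 2, the form of most tissues. Its signals in controls 1 to 5 were 2625, 2433, 1904, 1546 and 1642, and in CR they ran from 1771 to 2820 with a median of 2360. The 2 highest animals were CR, and controls 4 and 5 were the 2 lowest of the 13. The difference was 0.21 ± 0.17 (SE, log2; 95% interval -0.15 to 0.57; limma's adjusted p = 0.999), and 0.12 without control replicate 4.

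SLC25A37 encodes mitoferrin 1, best known from developing red cells. Controls 1 to 5 had signals of 2002, 1482, 1244, 1528 and 1777, and in CR they ran from 1497 to 2214 with a median of 1782. The groups overlapped over most of their range. The difference was 0.15 ± 0.15 (SE, log2; limma's adjusted p = 0.999), 0.061 without control replicate 3 and 0.23 without control replicate 1, while its other 4 probe sets lay between -0.76 and 0.40. The summed signal of 4 of 8 erythroid and blood markers varied from 4390 to 67297 in controls and from 5365 to 94621 in CR, and its part in the SLC25A37 values was not tested. The lowest signal of one of these markers was 4.10. SLC25A39, which imports glutathione, differed by 0.15 ± 0.23, and by 0.00033 without control replicate 4. SLC25A40, its close relative, differed by -0.0026 ± 0.18.

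SLC25A14, SLC25A27 and SLC25A30 resemble the uncoupling proteins in sequence and are best known from brain and kidney. The CR mean was lower for all 3, where it was higher for 50.8% of all named genes, and none passed the test. SLC25A30 had signals of 612.4, 356.5, 256.9, 200.8 and 455.3 in controls 1 to 5, and from 195.4 to 460.5 in CR with a median of 258.2. One CR animal lay above the control mean, and 7 lay below it. The difference was -0.36 ± 0.27 (SE, log2; limma's adjusted p = 0.999), -0.56 without control replicate 4 and -0.16 without control replicate 1, while a dimmer probe set gave 0.54. SLC25A14 differed by -0.52 ± 0.54. SLC25A27 differed by -0.12 ± 0.27, and its other probe sets by 0.18 and 0.60.

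SLC25A46 lies in the outer membrane, where it takes part in mitochondrial fusion and fission. In controls 1 to 5 its signals were 2665, 3284, 3022, 2206 and 3616, and in CR they ran from 2278 to 4151 with a median of 3229. Control replicate 4 was the lowest and 2 CR animals were the highest. The difference was 0.11 ± 0.17 (SE, log2; limma's adjusted p = 0.999), and 0.0085 without control replicate 4.

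SLC25A34 and SLC25A35 have no settled substrate. SLC25A34 was bright, with signals of 1785, 2238, 933.3, 1274 and 3777 in controls 1 to 5 and from 1154 to 3053 in CR with a median of 1854, and it differed by 0.039 ± 0.29 (SE, log2). SLC25A35 lay at the 52.9th percentile of probe sets, where those below the 50th were not tested. Its signals in controls 1 to 5 were 256.1, 143.0, 162.7, 97.9 and 315.5, and in CR they ran from 18.8 to 332.3 with a median of 130.4. The highest and the lowest of the 13 animals were both CR. The difference was the most negative of the tested carriers, -0.90 ± 0.60 (SE, log2; 95% interval -2.17 to 0.37; limma's adjusted p = 0.999), and -0.57 without CR replicate 4.

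The bright carriers were then compared with SLC25A4 across the 13 animals, to describe which of them varied together. All arrays share the scaling to 1 trimmed mean, and 11 carriers were compared, with permutation p-values from 100000 resamples adjusted over the 11. SLC25A3 followed SLC25A4 closely, with Pearson's r = 0.966 (p = 1e-05, adjusted p = 0.00011, permutation) and Spearman's rho = 0.934 (p = 1e-05, adjusted p = 0.00011, permutation), where 1e-05 is the smallest p the resamples can give. SLC25A11 gave r = 0.849 (p = 0.00011, adjusted p = 0.000605, permutation) and rho = 0.885 (p = 0.00015, adjusted p = 0.000825, permutation). SLC25A26 gave r = 0.757 (p = 0.00103, adjusted p = 0.00378, permutation) and rho = 0.720 (p = 0.00718, adjusted p = 0.0263, permutation). Each gene entered by its brightest probe set only, and no r was computed for the others. The other probe set of SLC25A11, also tested, was highest of the 13 animals in control replicate 4 (log2 signal 10.28). The brightest was lowest there (10.66). For SLC25A3 both probe sets were lowest in that animal (13.26 and 6.51). In control replicate 3, however, the dimmer one was the highest of the 13 (7.97). There the brightest (13.81) and SLC25A4 (15.15) lay below their control means (14.04 and 15.26). Whether the dimmer probe set of SLC25A3 followed SLC25A4 was not tested.

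For the probe sets compared, these 3 relations did not rest on the animals farthest from the median of SLC25A4, controls 4 and 1. Without both of them r was 0.948 for SLC25A3, 0.897 for SLC25A11 and 0.716 for SLC25A26, and within the 8 CR animals it was 0.933, 0.917 and 0.661. The 5 controls were too few for a value of their own. Of 9811 other tested genes, which are not independent of each other, 0.0408% had an r with SLC25A4 at least as far from 0 as that of SLC25A3, 2.05% as that of SLC25A11 and 5.25% as that of SLC25A26.

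The rest of the bright carriers were less close to SLC25A4. SLC25A5 ran against it, with r = -0.641 (p = 0.0231, adjusted p = 0.0424, permutation) and rho = -0.522 (p = 0.0699, adjusted p = 0.154, permutation), but r was -0.384 without controls 4 and 1, -0.325 without control replicate 4 alone and -0.496 within CR, so the pooled value rested in part on those animals. SLC25A28 gave r = 0.621 (p = 0.0150, adjusted p = 0.0412, permutation) and rho = 0.560 (p = 0.0486, adjusted p = 0.134, permutation), with r = 0.340 without controls 4 and 1, 0.418 without control replicate 4 alone and 0.626 within CR. SLC25A46 gave r = 0.606 (p = 0.0227, adjusted p = 0.0424, permutation) and rho = 0.440 (p = 0.135, adjusted p = 0.247, permutation), with r = 0.607 without both controls, 0.385 without control replicate 4 alone and 0.621 within CR. Among the other tested genes an r this far from 0 was common, with 10.9% at least as far from 0 as SLC25A5, 12.7% as SLC25A28 and 13.6% as SLC25A46. For the other 5, SLC25A34, SLC25A37, SLC25A25, SLC25A36 and SLC25A1, r lay between -0.257 and 0.439, and none passed with either coefficient.

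**Figure D3:**
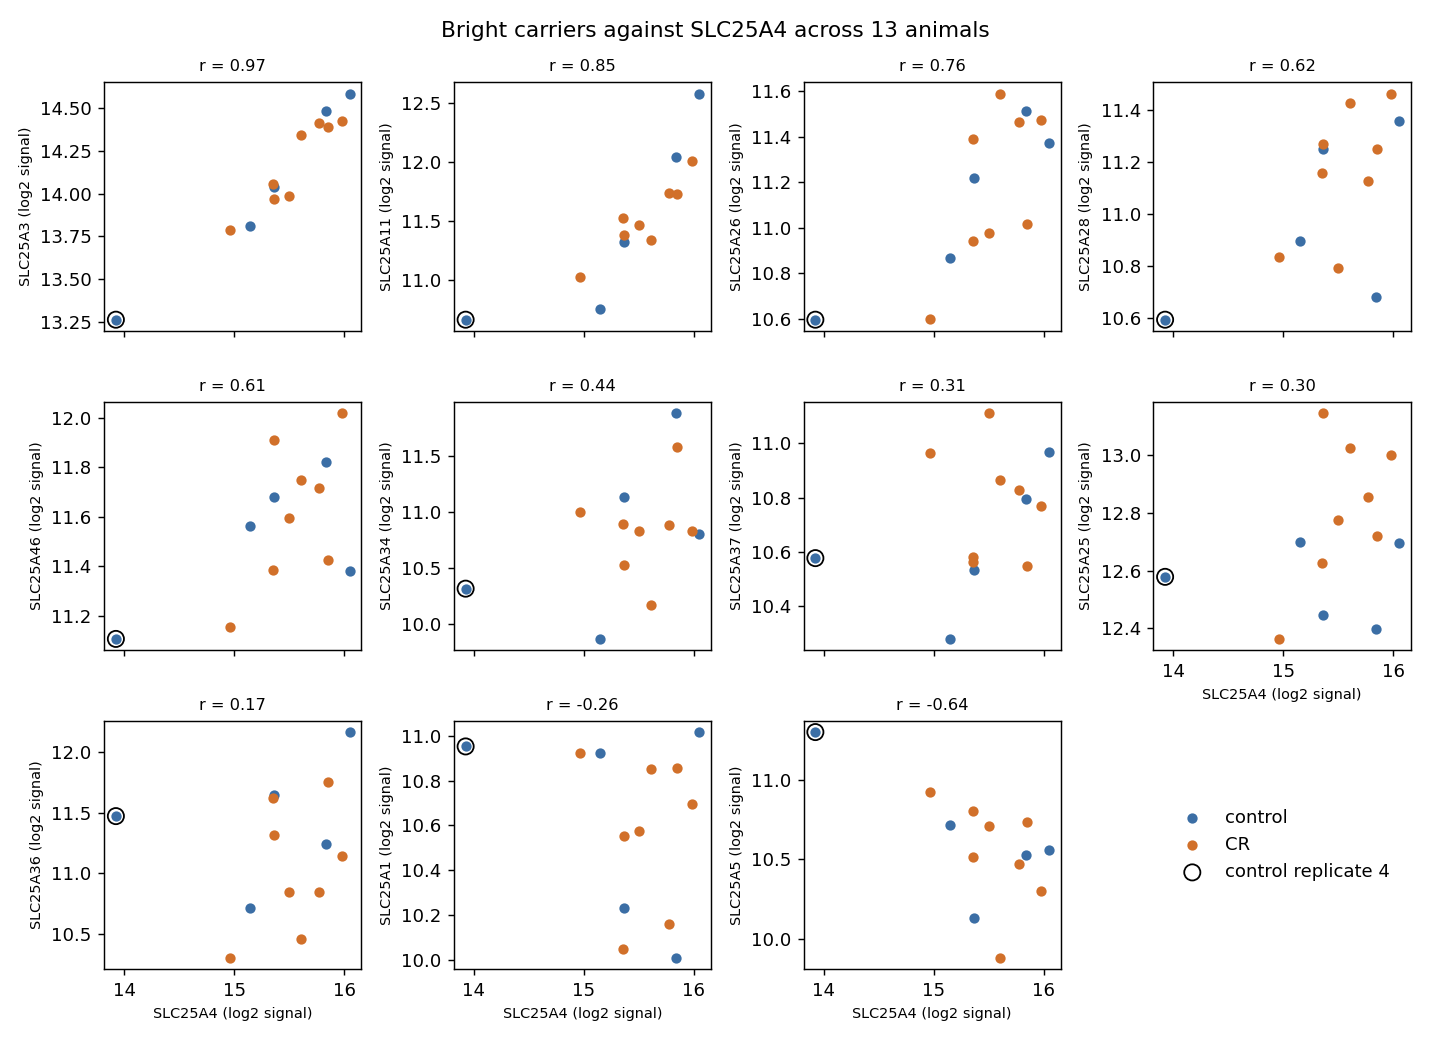
Log2 signal of 11 bright carriers (vertical axes) against that of SLC25A4 (horizontal axes) in 5 control (blue) and 8 CR (orange) animals, with control replicate 4 circled and Pearson's r over all 13 above each panel. SLC25A3 and SLC25A11 rise with SLC25A4 in both groups, with r of 0.97 and 0.85, and SLC25A5 runs the other way, with r of -0.64. Only the brightest probe set of each gene is shown.

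Control replicate 4 had the lowest signal of all 13 animals for 6 of the 12 bright carriers, where it had the lowest signal for 32% of all named genes as bright as these. The carriers were SLC25A3, SLC25A4, SLC25A11, SLC25A26, SLC25A28 and SLC25A46. Against the mean log2 signal of the other controls its signal was 3.19-fold lower for SLC25A4, 2.02-fold lower for SLC25A11 and 1.96-fold lower for SLC25A3. For SLC25A25 and SLC25A36 it lay within 0.030 of that mean on the log2 scale. The adipocyte, endothelial, matrix and macrophage markers summed higher in this animal than in the other controls, the erythroid and blood markers did not (43148, with up to 67297 in another control), and their part in these values was not tested. CR replicate 8 had the lowest sum of 7 of 7 slow-fibre markers, 20659 against 94781 to 433700 in controls and up to 489189 in CR, and its SLC25A4 signal was 49910, close to the CR median.

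Where a carrier had several probe sets, they often differed in sign. Of 13 such genes, all probe sets shared a sign for 4, SLC25A4, SLC25A15, SLC25A25 and SLC25A29, and differed in sign for 9. The second probe set of SLC25A3, with a mean log2 signal of 7.34, gave a difference of -0.19, and that of SLC25A11 gave -0.22. For SLC25A17 the brightest probe set gave -0.21 and the other 2, both too dim to be tested, -1.52 and 0.096.

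**Figure D4:**
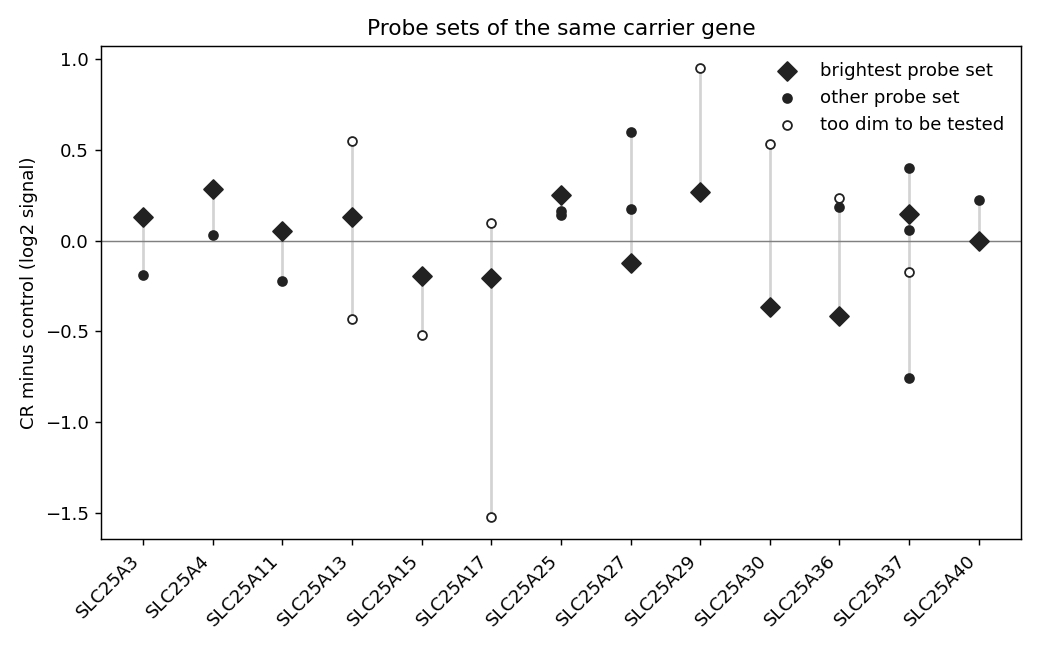
Difference of the mean log2 signal, CR minus control, for each probe set of the 13 carriers with more than 1. Diamonds are the brightest probe sets, dots the others and open dots those too dim to be tested. The probe sets of SLC25A25 lie together between 0.14 and 0.25, and those of SLC25A37 spread from -0.76 to 0.40.

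Genes that work with the carriers were listed for comparison, and 21 of 32 were measured. The list held the uncoupling proteins, the outer membrane channels, the TIM22 route that inserts carriers into the inner membrane, the calcium uniporter, the shuttle enzymes and partners in energy transfer. None of the 20 that were tested passed, and 0 had an unadjusted p under 0.05. The CR mean was higher for 10 and lower for 11, with a median difference of -0.012. The lowest p belonged to TIMM9, a chaperone that guides carriers across the space between the membranes, with -0.38 ± 0.19 (SE, log2; limma's adjusted p = 0.999). TOMM70, the outer membrane receptor for carriers, differed by 0.31 ± 0.21, and MCUB, a subunit of the calcium uniporter that dampens it, by -0.32 ± 0.22. The TOMM70 difference was 0.16 without control replicate 5, and that of MCUB was -0.12 without control replicate 4.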

How the data were processed

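Trizol-extracted total RNA was biotin-labelled and hybridised to Affymetrix arrays, as the labels' protocols describe. The authors deposited intensity values, a linear signal for each probe set on each array. The submitters' processing notes name MAS5 with no version. With 2% of probe sets trimmed at each end, the mean signal was 500 on each of the 13 arrays. Detection calls were not used here.

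Of 52865 probe sets, 99 control probe sets were removed. The platform annotation gave 1 gene symbol for 24969 probe sets, several for 361 and none for 27535. Signals were floored at 1, which applied to 137 values and to 0 of the values chosen for the carriers, and log2 transformed. Differences are CR minus control. Tests were run in R 4.3.3 with limma 3.58.1 (lmFit, then eBayes with an intensity trend). Permutation tests of correlations used Python 3.11.15, and figures matplotlib 3.10.9. The code of the test was run on simulated data with known changes and noise independent between probe sets. The arrays here share variation between probe sets, so that run does not give the test's error rate in these data.

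Carriers named in full were the 12 bright ones, the 5 lowest p in each direction and the paralogs of SLC25A4, SLC25A13, SLC25A28 and SLC25A25, and of the related genes the 3 with the lowest p. The others appear with their difference or in a range. The members and lists were chosen with earlier results of these data known. Of 46 SLC25A symbols in RefSeq's table for the T2T-MMU8v2.0 assembly, used for names only, 36 had a probe set with that symbol alone. The labels describe the arrays as biological replicates. No batch or date of the arrays was used here, and the number of arrays limits the precision.

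Alternatives were quantile normalization or median centring; an offset of 16 before log2; every probe set, or only the brightest 25%, in the test; array weights; eBayes with no trend; the 3-prime over 5-prime ratios as covariates; averaging over a gene's probe sets; an exact permutation test; a block for the replicate number; and leaving out 1 animal at a time.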

Additional observations from a re-analysis of the deposited data

Results flagged for a closer look

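Within each diet, an animal far from the rest of its group was sought for the 24 named genes, in 48 groups, and 2 were found, where chance gives about 1 in 20. SLC25A13 had its highest log2 signal among CR animals in CR replicate 2, 8.36, where the next was 7.34. SLC25A22 had its lowest log2 signal among CR animals in CR replicate 8, 6.24, where the next was 7.38.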

How the results depend on the processing

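The number of carriers past the adjusted threshold was 0 under all 11 other settings and with any 1 of the 13 animals left out. The 0 of the exact permutation test carries little weight. Its smallest p is 0.000777, which cannot pass the adjustment over 26383 probe sets unless very many of them reach it. Over all 26383 tested probe sets, 641 had an unadjusted p under 0.05 with limma and 721 with the exact permutation test, 389 with the replicate block, 1783 of 52766 with no filter and 260 of 13192 with the brightest 25%, and up to 1226 with 1 animal left out (CR replicate 2). The number past the adjusted threshold over all of them, 0 otherwise, came to 1, not a carrier, when control replicate 1 or control replicate 5 was left out. The number of carriers at an unadjusted p under 0.05 was 0, and 1 with no filter (SLC25A2, 1.69), with the RNA quality ratios as covariates (SLC25A35, -1.58) and with the replicate block (SLC25A35, -1.40). With 1 animal left out it was 0 to 1: SLC25A36 without control replicate 3, SLC25A30 without control replicate 4 and SLC25A25 without CR replicate 2. The median of the carriers was -0.14 with the RNA quality ratios as covariates and -0.074 to 0.035 with 1 animal left out, and the cause was not tested. The CR mean was higher for 9 of the 12 bright carriers, for 7 with array weights and for 6 with the RNA quality ratios as covariates. With 1 animal left out it was higher for 6 (control replicate 4) to 10 of them (control replicate 1, among others). Control and CR animals of the same number deviated with r from -0.20 to 0.020 across probe sets, so the numbers were not taken as pairs, and the replicate block changed no call past the adjusted threshold.

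Of 264 values of named genes under the other settings, 248 kept their direction and 16 turned it. With array weights these were 0.011 for SLC25A1, -0.068 for SLC25A11, -0.0015 for SLC25A26 and -0.028 for SLC25A34. With the RNA quality ratios they were -0.0080 for SLC25A3, -0.21 for SLC25A11 and -0.14 for SLC25A34. With the replicate block they were 0.038 for SLC25A5, -0.045 for SLC25A11, 0.0045 for SLC25A24 and -0.040 for SLC25A26. Averaging over all probe sets of a gene gave -0.029 for SLC25A3, -0.083 for SLC25A11, 0.086 for SLC25A30, 0.0026 for SLC25A36 and -0.065 for SLC25A37. With 1 animal left out, 17 of 312 turned: the ranges were -0.20 to 0.054 for SLC25A1, -0.059 to 0.27 for SLC25A3, -0.051 to 0.48 for SLC25A4, -0.23 to 0.059 for SLC25A5, -0.15 to 0.33 for SLC25A11, -0.035 to 0.33 for SLC25A13, -0.062 to 0.17 for SLC25A26 and -0.19 to 0.31 for SLC25A34. Among those that kept their direction, the ranges were 0.19 to 1.08 for SLC25A31, 0.0085 to 0.19 for SLC25A46, -0.47 to -0.16 for SLC25A22 and -0.39 to -0.060 for SLC25A52. Quantile normalization, median centring and the offset turned none of the named genes. Carriers near the dim limit had intervals up to 1.27 wide on each side.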

Other observations

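Paralogs were also followed as ratios within each array, as log2 values relative to their mean over the 13 arrays. The ratio of SLC25A4 to SLC25A5, the ADP/ATP carriers of muscle and of many other cells, averaged -0.24 ± 1.19 in the controls (SD, n = 5). In the CR animals it averaged 0.15 ± 0.57 (SD, n = 8). It was -2.24 in control replicate 4, and CR lay between -0.82 and 0.87. Without that animal CR minus control was -0.11, where it was 0.39 with it. The ratio of the mitoferrins, SLC25A28 to SLC25A37, differed by 0.060 between the diets, and by -0.017 without control replicate 4. That of the calcium-regulated carriers, SLC25A25 to SLC25A24, averaged -0.32 ± 0.36 in the controls (SD, n = 5). Its CR mean was 0.20 ± 0.84 (SD, n = 8), with animals from -1.05 to 1.26. These ratios are given as values with no test.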
